A study of Mus musculus with 4 samples.

Results

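The genes described here are the semaphorins and their plexin receptors, the Slits and their Robo receptors, the netrins and their Unc5 receptors, and the ephrins and their Eph receptors. Members were taken by gene name from the non-control probes of a 60-base oligonucleotide array, and a probe was kept where it was well above background in a channel on at least 3 of 4 arrays. The name patterns matched 118 probes, of which 93 were kept, out of 28794 kept probes on the array. Unc50 and Unc5cl match the letters but are not netrin receptors, and they were set aside. Their mean log2 ratios were 0.05 ± 0.15 and -0.19 ± 0.06 (SD, n = 4). The remaining 57 genes, of 64 on the array and of 19091 kept genes in all, are the guidance genes of the text. Efna3, Epha6, Epha8, Epha10, Ntn4, Sema4f and Unc5d had no kept probe. The gene listed in the files as Ntn2l carries the current name Ntn3 and is called that here.

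RNA came from mouse embryos at stage e10.5. The dissected tissue was the atrioventricular canal (AVC), the part of the heart tube joining atria to ventricles, where endocardial cushions form. The 2 groups were wild-type controls and Tbx3 mutants, named hypomorphic in the series title, both on a mixed background, 50% Sv129 and 50% C57Bl6. The construction of the mutant allele and the number of its copies are not given in the sources used here. Tbx3 encodes a T-box transcriptional repressor of the AVC and the conduction system. Each pool held micro-dissected AVC pieces of 5 hearts, and each of the 4 arrays carried 1 control pool in green (Cy3) and 1 mutant pool in red (Cy5). Dyes were not swapped, and for a single gene the effects of dye and genotype therefore cannot be told apart. A log2 ratio below is the mutant over the control pool of 1 array, and an error is the SD over 4 arrays.

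Semaphorins are secreted or membrane-bound ligands that signal through plexins, often with a neuropilin as co-receptor, and they repel or attract migrating cells and growing vessels. Slits are large secreted proteins bound by Robo receptors, netrins are laminin-like secreted cues bound by Unc5 receptors and others, and ephrins are cell-surface ligands that signal in both directions with Eph receptors on neighbouring cells. These families were first known from axons. In the embryonic heart they are known for outflow tract septation, for the shaping of endocardial cushions and for the sorting of arterial from venous endothelium.

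Tbx3 itself stood between -1.43 and -1.21 on the 4 arrays, with a mean log2 ratio of -1.35 ± 0.10, and was the 1 gene of 19091 with a limma adjusted p under 0.05 (0.0454). All 9 endothelial, 8 myocardial, 10 cushion mesenchyme and 5 AVC marker genes were kept. The median spot signal was 117.9 to 133.5 in the control channel and 175.1 to 232.5 in the mutant channel. Array 2 stood apart: over all genes its ratios correlated with the other arrays at r = -0.06 to 0.075, against r = 0.66 between arrays 3 and 4, and their SD was 0.49 against 0.26 to 0.29 elsewhere. The summed signal of the uterus and decidua markers was 80600 in control pool 2 and 6420 to 7770 in the other control pools. For leukocyte markers the sums were 39500 and 9250 to 12100. Results that rest on array 2 are therefore given with and without it.

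The 60-base probes are what the array reads, and several of the genes below have probes that disagreed. The first 30 bases are shown for the kept probes of Sema7a, Robo1, Robo2, Efna5 and Ephb2, so that each value can be tied to the transcript stretch behind it. Positions are those of the array files, in mouse build mm7, and cover the whole probe. Which exon or untranslated region they lie in was not analysed here.
Sema7a, chr9:57990527-57990586, plus strand: tcccttatctcttctcaatgcactttaata
Robo1, chr16:73042586-73042645, plus strand: agctggtgacctcacgtacagactttatcg
Robo2 probe 1, chr16:73917461-73917520, minus strand: ttgaatatgtgttaaccatccatattaaga
Robo2 probe 2, chr16:73892904-73894139, minus strand: caaatagtcaaggacagtttacaggtgaat
Robo2 probe 3, chr16:73889734-73889793, minus strand: gttgccagtttatatgtgatttcatggaac
Robo2 probe 4, chr16:73968260-73968319, minus strand: caatcggtgagcaatagctggcagacagtg
Efna5 probe 1, chr17:60811930-60811989, minus strand: tgtgattctagcatttgtctctaaccaatg
Efna5 probe 2, chr17:60857960-60858019, minus strand: tcggaaaaattccagctcttcactcccttt
Ephb2 probe 1, chr4:136033124-136033183, minus strand: aggatagttgttctgtcttgggagacggtt
Ephb2 probe 2, chr4:136035998-136037395, minus strand: tactgggacatgaccaatcaagacgtaatc
Robo2 probe 2 spans 1236 genomic bases and Ephb2 probe 2 spans 1398, so each crosses an intron, while the other probes lie in 60 unbroken bases. The 2 Efna5 probes were designed on different RefSeq records of the gene, and the Robo2 probes on 3 different records.

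The question behind the comparison is which guidance genes differ in level between Tbx3 mutant and control AVC. None of the 57 passed a limma adjusted p of 0.05 on 4 arrays, where 0.00524% of all genes did; the lowest adjusted p among them was 0.118. Of the 57, 18 (31.6%) had an unadjusted p under 0.05, against 14.6% of all genes tested. These were 13 lower in the mutant (22.8%, against 7.45% of all genes) and 5 higher (8.77%, against 7.1%). On all 4 arrays, 13 guidance genes were below 0 (22.8%; all genes 12.6%) and 4 were above 0 (7.02%; all genes 12.3%), so 17 (29.8%) had 1 sign throughout, against 24.9% of all genes. The median of the 57 mean log2 ratios was -0.06, and it was 0.00 over all genes (0.00119). More of the genes thus lay on the lower side than the background share, with no single gene past the threshold. The choice of centring and of array weights bear on this reading. With arrays centred on their median in place of loess, all genes shifted to a median of 0.23, and 22 guidance genes were higher (38.6%; all genes 46.2%) and 6 of 57 lower (all genes 6.28%) at an unadjusted p under 0.05, so signs here are relative to the loess curve. Under that centring Sema7a read -0.44, Robo2 -0.26, Ephb2 -0.21, Robo1 -0.19, Ntn3 -0.13 and Efna5 -0.0184. With limma array weights, which gave array 2 the lowest weight, 6 passed an adjusted p of 0.05 (2.11% of all genes did), all lower: Efna5, Ephb2, Ntn3, Robo1, Robo2 and Sema7a.

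Without array 2, 4 guidance genes passed (7.02%, against 1.01% of all genes). Sema7a, Ephb3 and Ntn3 were lower and Epha2 was higher in these 3 mutant pools, and Epha2 is named because it passed there, after its values were seen. At an unadjusted p under 0.05, 17 were lower (29.8%) and 8 higher (14%), against 11.2% and 12% of all genes, or 23.2% together. Of the 57, 23 were below 0 and 9 above 0 on all of arrays 1, 3 and 4. Of all 19091 genes, 4381 were below 0 and 4508 above 0 there, so 46.6% had 1 sign. The median of the 57 was then -0.06, against 0.01 over all genes.

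Markers of the cell types in the tissue also differed between the pools. The cushion mesenchyme markers had a median log2 ratio of -0.38 over 4 arrays and -0.32 without array 2, 9 of 10 were below 0, and their summed signal was 113000 to 119000 in mutant pools against 138000 to 141000 in control pools 1, 3 and 4 and 533000 in control pool 2. The myocardial markers had a median of 0.29, and 0.15 without array 2, with 6 of 8 above 0. Their median was -0.02, 0.64, 0.74 and 0.11 on arrays 1 to 4, and their sums were 848000 to 988000 against 543000 to 659000. The AVC markers, Tbx3 among them, had a median of -0.66, and -0.76 without array 2, with 4 of 5 below 0. The erythroid markers had a median of 0.84, and 0.70 without array 2, and it was 1.97, 0.99, -0.22 and 0.11 on arrays 1 to 4. Their sums were 703000 to 1060000 in mutant and 257000 to 664000 in control pools. The epicardial markers had a median of 0.14, and 0.25 without array 2, with overlapping sums of 27500 to 39000 and 23500 to 33400. The endothelial sums overlapped, at 31100 to 34300 in mutant and 30300 to 34100 in control pools. The neural crest and neuron markers had a median of -0.187, and -0.165 without array 2, with 6 of 9 below 0. Their sums overlapped, at 6850 to 8310 in mutant and 7700 to 9080 in control pools. In bulk tissue, fewer cells of a type and less RNA per cell cannot be told apart, and the part of these marker differences in the guidance gene values was not tested.

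**Figure D1:**
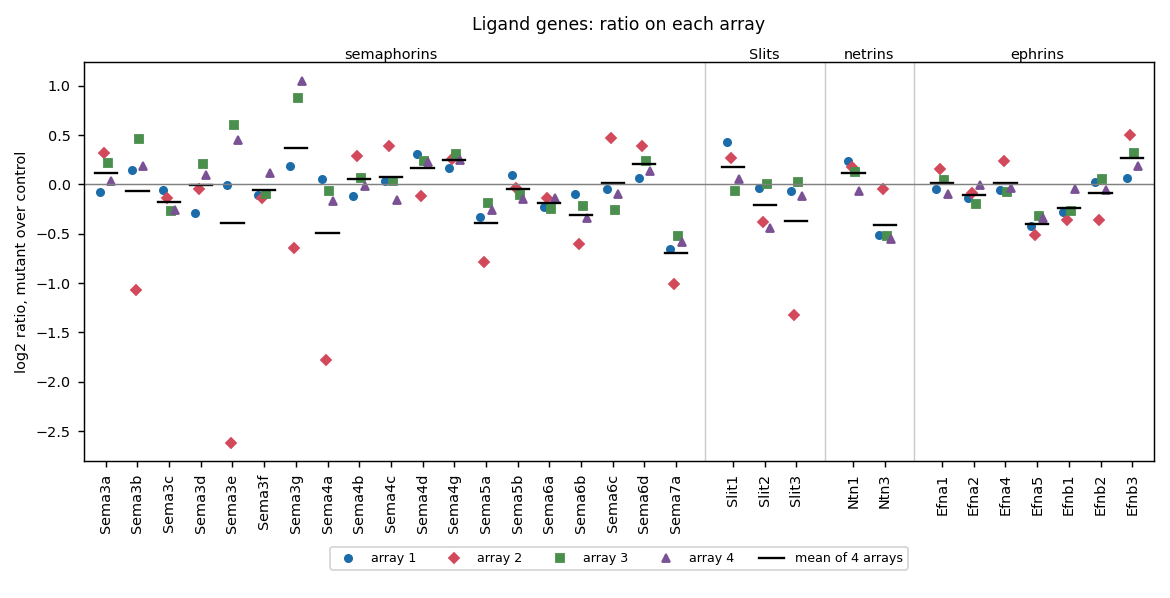
Log2 ratio of mutant over control for each ligand gene (semaphorins, Slits, netrins and ephrins), 1 point per array and a bar for the mean of 4 arrays. Sema7a and Efna5 are below 0 on every array, while Sema3e, Sema4a, Slit3 and Sema3b have 1 low point each, all from array 2 (-2.62, -1.78, -1.32 and -1.07).

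Among the ligands, 19 of 20 semaphorin genes on the array were kept. Of these, 8 had a mean above 0 and 11 below, with a family median of -0.05 (-0.03 without array 2, and 0.12 under median centring, where only the Robo family stayed below 0). On all 4 arrays, 5 of the 19 were lower and 2 higher (all genes 12.6% and 12.3%). The same numbers, 5 lower and 2 higher, had an unadjusted p under 0.05 (all genes 7.45% and 7.1%). The plot of ligand ratios shows that the widest scatter of all families lies here.

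Sema7a, a membrane-anchored semaphorin that binds integrins and plexin C1, had the lowest mean of the 57 genes. Its level was 9.55, 10.33, 9.55 and 9.39 in control pools 1 to 4, in normalized log2 intensity, and 8.89, 9.32, 9.02 and 8.81 in the mutant pools. Every mutant pool was below every control pool, and control pool 2 was the highest. How many of all genes had pools without overlap was not counted, for Sema7a or for the genes below. Genes described so had 1 sign on all arrays and a low unadjusted p, which makes such a gap more likely. The Sema7a log2 ratios were -0.66, -1.01, -0.52 and -0.58, with a mean of -0.69 ± 0.22, or 1.62-fold. The limma adjusted p was 0.132 on 4 arrays and 0.043 without array 2, where the mean was -0.59 ± 0.07 (SD, n = 3).

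The class 3 semaphorins are the secreted ligands that use neuropilins, and several are known from outflow tract and vascular patterning. Sema3c, which guides cardiac neural crest cells into the outflow tract, had ratios of -0.05, -0.14, -0.27 and -0.26, with a mean of -0.18 ± 0.10. All 4 arrays were below 0, but a dimmer second probe averaged -0.01. Sema3a, a repellent ligand of neurons and cardiac innervation, averaged 0.12 ± 0.18, and its second probe 0.13, with array 1 below 0 on both probes. Sema3d, known from epicardium and pulmonary vein patterning, averaged -0.01 ± 0.21. Sema3f averaged -0.06 ± 0.12, and its dimmer second probe -0.15 ± 0.11, below 0 on all 4 arrays. Neither Sema3d nor the brighter Sema3f probe had 1 sign on all arrays.

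Sema3e is the ligand that plexin D1 binds without a neuropilin, in vessel patterning. Its level was 9.28 in control pool 2 and 6.80 to 7.11 in the other control pools, while the mutant pools ran from 6.66 to 7.43. Control pool 2 was therefore the one high sample, and the ratios were -0.01, -2.62, 0.61 and 0.45. The mean was -0.39 ± 1.51 on 4 arrays and 0.35 ± 0.32 without array 2 (limma adjusted p 0.79 and 0.203), so the sign of the mean rests on that array. The other Sema3e probes on the array were not kept, and each was well above background in at most 1 pool. No probe name matched plexin D1 (Plxnd1), so it was not analysed here.

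Sema3b, a further secreted class 3 ligand, had the same shape, at 0.14, -1.07, 0.46 and 0.19. Its level was 10.52 in control pool 2 and 9.15 to 9.53 in the other control pools. Sema3g, which is known from arterial endothelium, had ratios of 0.19, -0.64, 0.88 and 1.05, a mean of 0.37 ± 0.77. Arrays 1, 3 and 4 were above 0 for both genes, with means of 0.26 ± 0.17 for Sema3b and 0.71 ± 0.46 for Sema3g without array 2. The limma adjusted p without array 2 was 0.161 and 0.107.

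Sema4a, a membrane semaphorin studied in immune cells and vessels, had ratios of 0.06, -1.78, -0.07 and -0.17. Its level was 10.15 in control pool 2, 7.81 to 8.15 in the other control pools and 7.82 to 8.37 in the mutant pools. Without array 2 its mean was -0.06 ± 0.11, in place of -0.49 ± 0.86 with it. Control pool 2 thus held higher signal of Sema3b, Sema3e and Sema4a than any of the other 7 pools.

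Sema4g, a membrane semaphorin of class 4, was above 0 on all arrays, at 0.17, 0.26, 0.31 and 0.25. The control pools ran from 6.91 to 7.09 and the mutant pools from 7.19 to 7.26, so the groups did not overlap. The probe was dim, with a mean log2 intensity of 7.1. The difference was small, 0.25 ± 0.06 or 1.19-fold, with a limma adjusted p of 0.199.

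Sema5a, a transmembrane ligand with thrombospondin repeats, had ratios of -0.33, -0.78, -0.18 and -0.26. Its mean was -0.39 ± 0.27 on 4 arrays and -0.26 ± 0.07 without array 2. The related Sema5b is named here after its values were seen, because its probes differed. Its brightest probe averaged -0.05 ± 0.11, and the other probes averaged -0.29 ± 0.15 and -0.38 ± 0.18, both below 0 on every array.

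The class 6 semaphorins are transmembrane ligands that can also act as receptors. Sema6a was below 0 on all arrays, from -0.25 to -0.13, with a mean of -0.19 ± 0.06. Sema6b was below 0 on all arrays too, from -0.60 on array 2 to -0.10 on array 1. Its mean was -0.31 ± 0.22, or -0.22 ± 0.12 without array 2, on a dim probe (mean log2 intensity 7.3). For Sema6b the control pools ran from 7.29 to 7.70 and the mutant pools from 7.09 to 7.24, without overlap. Sema6d, a ligand of plexin A1 known for endocardial cell migration and myocardial trabeculation, went the other way. Its ratios were 0.06, 0.39, 0.24 and 0.14, a mean of 0.21 ± 0.14. The control pools ran from 12.15 to 12.29 and the mutant pools from 12.22 to 12.55, so the groups overlapped. Its other probes averaged 0.38 ± 0.25, above 0 on all 4 arrays, and 0.07 ± 0.23, above 0 on 2. The limma adjusted p was 0.27 for Sema6a, 0.263 for Sema6b and 0.312 for Sema6d.

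**Figure D2:**
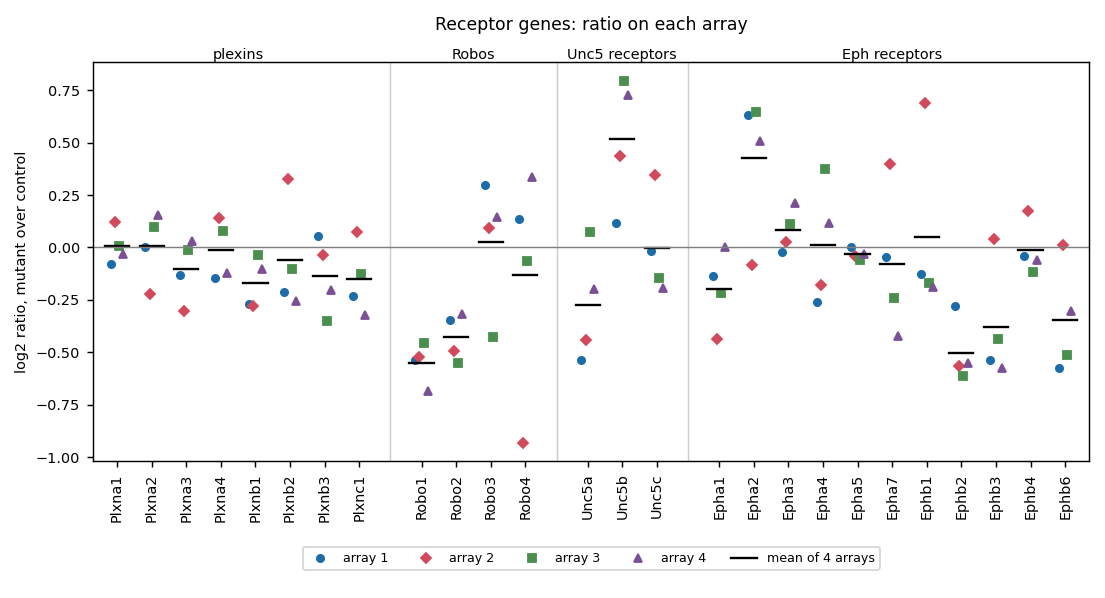
Log2 ratio of mutant over control for each receptor gene (plexins, Robos, Unc5 receptors and Eph receptors), 1 point per array and a bar for the mean of 4 arrays. Robo1, Robo2 and Ephb2 are below 0 on every array, Unc5b is above 0 on every array, and the plexin means lie between -0.17 and 0.01.

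The plexin means spanned the narrowest range of the 8 families, from -0.17 to 0.01. All 8 on the array were kept, 2 with a mean above 0 and 6 below. The family median was -0.08, and on 4 arrays none had an unadjusted p under 0.05, against 14.6% of all genes. Without array 2 the median was -0.10, and 2 of the 8 were lower at an unadjusted p under 0.05 (all genes 11.2%). These were Plxnb2 (-0.19 ± 0.08) and Plxnc1 (-0.23 ± 0.10), and Plxnc1 is named after its values were seen. Plxna1, a receptor of Sema6d and of class 3 semaphorins, averaged 0.00 ± 0.09, with ratios of -0.08, 0.12, 0.01 and -0.03. Plxna2, known from cardiac neural crest, averaged 0.01 ± 0.17, and its other probes -0.20 and 0.13. Plxna4 averaged -0.01 ± 0.14 (0.35 under median centring), and its other probes 0.15, above 0 on all 4 arrays, and 0.12. Plxnb2, a receptor of class 4 semaphorins, averaged -0.06 ± 0.27. Plxnb2 was above 0 on array 2 (0.33) and below 0 on arrays 1, 3 and 4 (-0.25 to -0.10). The plot of receptor ratios shows this band of means. The lowest plexin mean was -0.17 ± 0.12, of Plxnb1, named after its values were seen and the sole plexin below 0 on all arrays.

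All 3 Slit genes were kept, and Slit1, named after its values were seen, was the 1 with a mean above 0 (0.17 ± 0.22). Slit2, a secreted Robo ligand expressed in the developing heart, had ratios of -0.03, -0.38, 0.00 and -0.44, with a mean of -0.21 ± 0.23. Its second probe averaged -0.05 ± 0.15. Arrays 2 and 4 were the low ones on the first probe, and array 4 alone on the second.

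Slit3, a Slit ligand known from diaphragm and heart development, had ratios of -0.07, -1.32, 0.02 and -0.12. Its level was 14.39 in control pool 2 and 12.72 to 13.16 in the other control pools, and 12.74 to 13.09 in the mutant pools. Control pool 2 was again the 1 high sample. The mean was -0.37 ± 0.64 on 4 arrays and -0.06 ± 0.07 without array 2. A second probe, on another record of the gene, read 0.31, -0.62, 0.31 and 0.09, so array 2 was lowest on both probes while arrays 1, 3 and 4 differed in level between them.

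Robo1, a Slit receptor expressed in embryonic heart and known for septum and caval vein defects when lost, had the lowest p of the 57 genes. Its level was 11.75, 12.03, 12.08 and 12.07 in control pools 1 to 4 and 11.22, 11.50, 11.63 and 11.38 in the mutant pools. The highest mutant pool was below the lowest control pool. The log2 ratios were -0.54, -0.52, -0.45 and -0.68, array 2 included in the range of the others, with a mean of -0.55 ± 0.10 or 1.46-fold. The limma adjusted p was 0.118 on 4 arrays and 0.0512 without array 2.

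Robo2, the closest relative of Robo1, had ratios of -0.35, -0.49, -0.55 and -0.32. The lowest control pool stood at 8.41 and the highest mutant pool at 8.30, so the groups did not overlap. The mean was -0.43 ± 0.11, with a limma adjusted p of 0.139. In the order of the sequences above, the Robo2 probes averaged -0.43, -0.34, -0.52 and -0.03. Probes 1 to 3 were below 0 on all 4 arrays, and probe 4, the dimmest, was near 0 on arrays 2 to 4. Robo1 also had a second probe on the array, which was not kept.

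Robo4, the endothelial Robo, did not have 1 sign, with ratios of 0.13, -0.93, -0.06 and 0.34. Its level was 11.82 in control pool 2 and 10.65 to 10.76 in the other control pools. Its mean was -0.13 ± 0.56 on 4 arrays and 0.14 ± 0.20 without array 2. The family median of the 4 Robos was -0.28, with 2 lower on all arrays (all genes 12.6%).

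**Figure D3:**
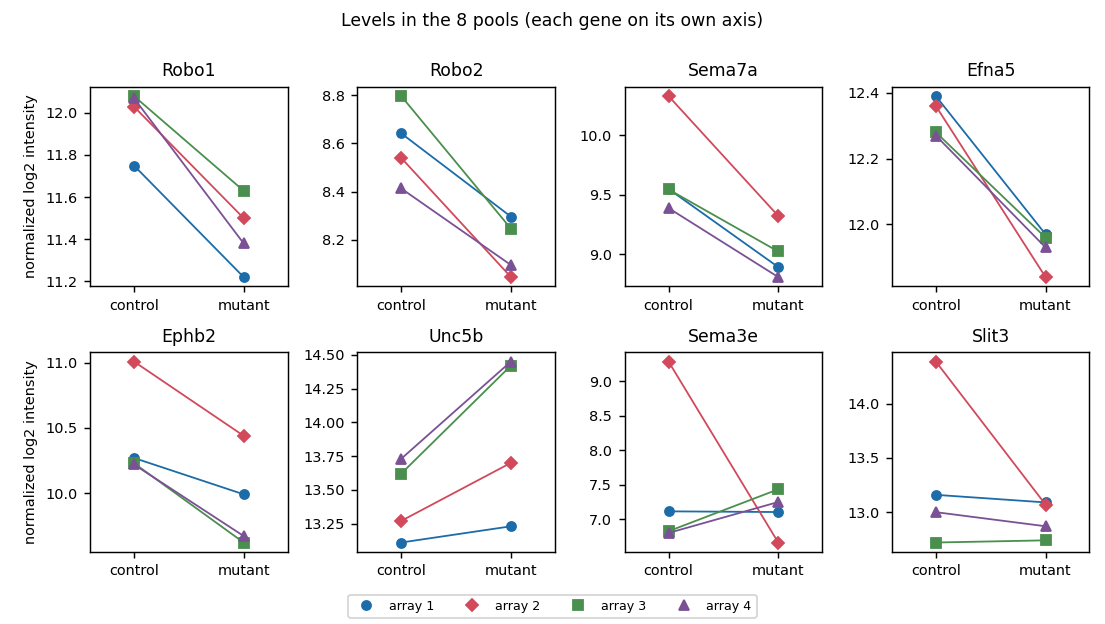
Normalized log2 intensity of 8 guidance genes in the 4 control and 4 mutant pools, each gene on its own axis, with a line joining the pools of 1 array. Robo1, Robo2, Sema7a and Efna5 have every mutant pool below every control pool, Ephb2 and Unc5b overlap, and Sema3e and Slit3 are high in control pool 2 (9.28 and 14.39). The share of all genes without overlap was not counted.

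Among the netrins, Ntn1, the founding netrin cue, averaged 0.12 ± 0.13, above 0 on arrays 1 to 3 (0.13 to 0.24) and below on array 4 (-0.07). Ntn3 is a less studied member of the family. Its level was 9.94 to 10.18 in control pools, 10.14 in mutant pool 2 and 9.42 to 9.58 in the other mutant pools. Mutant pool 2 was thus the 1 that lay among the controls. The ratios were -0.51, -0.04, -0.53 and -0.55, with a mean of -0.41 ± 0.24 on 4 arrays and -0.53 ± 0.02 without array 2. The limma adjusted p was 0.208 and 0.045.

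Of the Unc5 receptors, 3 of 4 were kept. Unc5b, an endothelial netrin receptor that also binds Robo4, had ratios of 0.12, 0.43, 0.80 and 0.73. Its level was 13.11, 13.27, 13.62 and 13.73 in control pools and 13.23, 13.70, 14.42 and 14.45 in mutant pools. Each mutant pool was above the control pool of its own array, but the groups overlapped, and arrays 3 and 4 were higher than arrays 1 and 2 in both. The mean was 0.52 ± 0.31 or 1.43-fold, the highest of the 57, with a limma adjusted p of 0.201, and 0.119 without array 2. The other Unc5 genes averaged -0.28 ± 0.27 and -0.00219 ± 0.24. The endothelial markers, beside Unc5b and Robo4, had a median log2 ratio of -0.03, with 4 of 9 above 0.

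Among the ephrins, 7 of 8 were kept, 3 with a mean above 0 and 4 below, and the family median was -0.08 (-0.06 without array 2, and 0.0147 with probes averaged per gene). Efna5, a membrane-anchored ligand of EphA receptors, had a level of 12.27 to 12.39 in control pools and 11.84 to 11.97 in mutant pools. All 4 mutant pools were lower than all 4 control pools. The log2 ratios were -0.42, -0.52, -0.32 and -0.34, with a mean of -0.40 ± 0.09 or 1.32-fold and a limma adjusted p of 0.139. Its probe 2, well above background in 3 control and 2 mutant pools, read 0.03 ± 0.16, so the difference rests on probe 1. With the probes averaged the gene read -0.18, and under median centring probe 1 read -0.0184 (limma adjusted p 0.83).

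Efna1, an ephrin known for valve development, averaged 0.01 ± 0.11, and it was above 0 on arrays 2 and 3. Efnb1, a transmembrane B-class ephrin, had ratios of -0.28, -0.36, -0.27 and -0.05 and a mean of -0.24 ± 0.13. Efnb3 had ratios of 0.06, 0.51, 0.32 and 0.19 and a mean of 0.27 ± 0.19. Both kept 1 sign on all 4 arrays, in opposite directions (under median centring Efnb1 read 0.18), with limma adjusted p values of 0.263 and 0.279. Efnb2, the arterial ephrin that pairs with venous Ephb4, had ratios of 0.02, -0.36, 0.06 and -0.06. The Efnb2 mean was -0.08 ± 0.19 on 4 arrays and 0.01 ± 0.06 without array 2. Its second probe read 0.07, 0.18, 0.31 and 0.44, above 0 on each array. The probe means thus differed in sign on 4 arrays, while the first lay near 0 without array 2. Under median centring the first probe read 0.30. Ephb4 averaged -0.01 ± 0.13.

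Of the Eph receptors, 11 of 14 were kept, 4 with a mean above 0 and 7 below, with a family median of -0.03 on 4 arrays and -0.12 without array 2. Ephb2, a receptor of B-class ephrins, had a level of 10.27, 11.01, 10.23 and 10.22 in control pools and 9.99, 10.44, 9.62 and 9.67 in mutant pools. Both pools of array 2 were high, so the groups overlapped although each mutant pool was below its own control. The log2 ratios were -0.28, -0.56, -0.61 and -0.55, with a mean of -0.50 ± 0.15 or 1.42-fold and a limma adjusted p of 0.134. Ephb2 probe 2, which crosses an intron and is dimmer, averaged -0.03 ± 0.21.

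Ephb3, which also binds B-class ephrins, had ratios of -0.54, 0.04, -0.44 and -0.57. Array 2 was the 1 array not below 0. Its mean was -0.38 ± 0.28 on 4 arrays and -0.52 ± 0.07 without array 2 (limma adjusted p 0.265 and 0.0496). Epha2, a receptor of A-class ephrins known from epithelia and vessels, went the other way, with ratios of 0.63, -0.08, 0.65 and 0.51. Its mean was 0.43 ± 0.35 on 4 arrays and 0.60 ± 0.07 without array 2 (limma adjusted p 0.278 and 0.043). For both genes array 2 was near 0 while the other arrays lay close together. Ephb3 read 0.02 under median centring (0.0247), so its sign rests on the loess curve. Epha3, a receptor required for AVC cushion development and septation, averaged 0.08 ± 0.10, from -0.02 on array 1 to 0.21 on array 4. The dimmer Epha3 probes averaged -0.03 and -0.05, so its probes differed in sign.

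**Figure D4:**
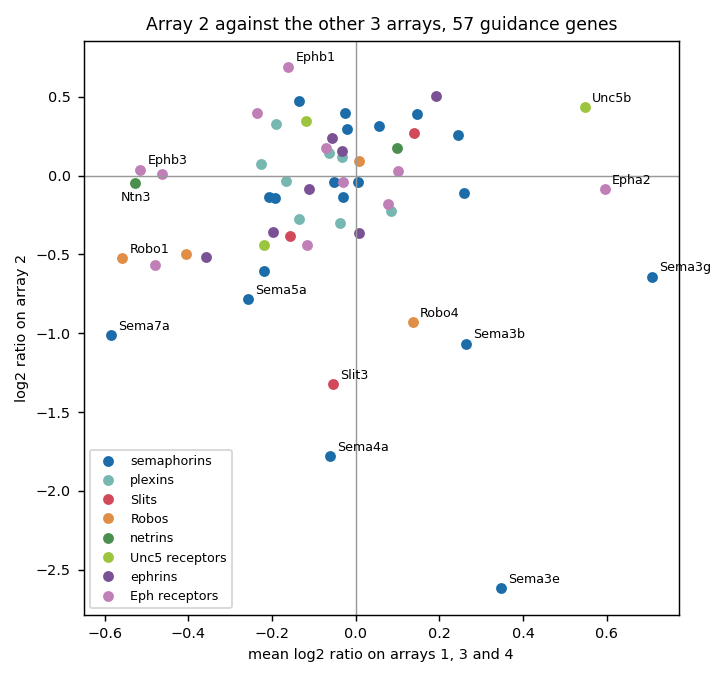
Log2 ratio of each of the 57 guidance genes on array 2 (vertical) against its mean on arrays 1, 3 and 4 (horizontal), coloured by family. Sema3e, Sema4a, Slit3, Sema3b and Sema7a lie below -1 on array 2, and only Sema7a of these is far below 0 on the horizontal axis (-0.59).

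The plot of array 2 against the other arrays sorts these genes. On array 2, 5 of the 57 (8.77%) were below -1, against 3.55% of all genes, and none was above 1, against 0.466% (4.01% of all genes were beyond 1 either way). Sema7a was below 0 on all of the other arrays as well, and Sema3e, Sema4a, Slit3 and Sema3b were not. Their means on arrays 1, 3 and 4 were 0.35, -0.06, -0.06 and 0.26, in that order. The ratios of the 57 genes correlated across genes at r = 0.84 between arrays 3 and 4, 0.57 and 0.66 between array 1 and those, and -0.06 to 0.13 with array 2. The points of such a correlation share an array and its dyes. The uterus and decidua markers had a median of -3.00 on array 2 and -0.28, 0.40 and 0.06 on arrays 1, 3 and 4, and their part in the array 2 values was not tested.

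**Figure D5:**
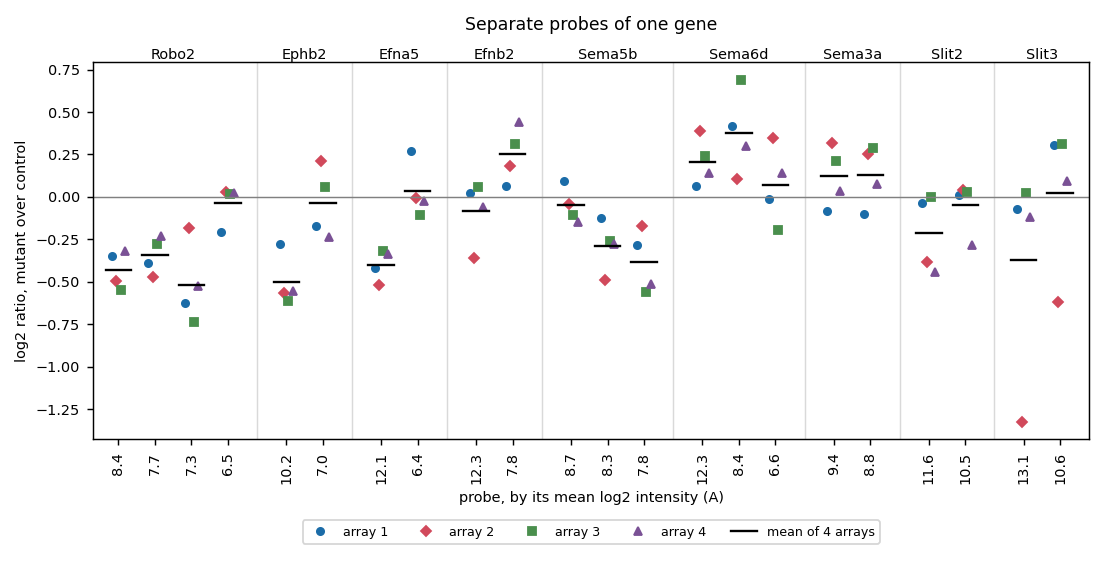
Log2 ratio of mutant over control for the separate kept probes of 9 guidance genes, ordered within a gene from bright to dim and labelled with their mean log2 intensity, 1 point per array and a bar for the mean of 4 arrays. The dimmest probes of Robo2, Ephb2 and Efna5 lie near 0 (-0.03, -0.03 and 0.03), while their brighter probes lie below 0 on every array.

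Of the 27 guidance genes with more than 1 kept probe, 9 had probes whose means differed in sign. In some of the 9 the means lay near 0, as for Ephb4 (-0.01 and 0.01) and Epha7 (-0.08 and 0.01). The plot of separate probes shows that 3 of 4 Robo2 probes and both Sema3a probes read alike, and that Efna5, Ephb2 and Efnb2 do not. The dimmest probes of Efna5, Robo2 and Ephb2 had mean log2 intensities of 6.40, 6.54 and 6.98, against 12.13, 8.38 and 10.18 for the brightest. Whether the disagreement reflects different transcripts or low signal was not tested.

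The promoters of these genes were searched for the T-box half-site AGGTGT and its reverse complement ACACCT, on either strand, in the window from 250 bases before to 50 bases after each start (RefSeq, GRCm38.p6). A promoter was at hand for 49 of the 57 genes. The letters were found for 6 of the 49 (12.2%), against 15.7% of all genes with a promoter. None of the 12 genes below 0 on all arrays that had a promoter held them, and 1 of 3 genes above 0 on all arrays did. That gene was Sema6d, and its matches are shown because it is also 1 of the 4 genes above 0 on every array, with the letters in capitals.
Sema6d, chr2:124089719-124089756, plus strand, 238 bases before the start: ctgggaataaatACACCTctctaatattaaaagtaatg
Sema6d, chr2:124089845-124089890, plus strand, 104 bases before the start: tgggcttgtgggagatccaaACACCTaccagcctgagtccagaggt
A match is a description of letters and not of binding.

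The co-receptors and intracellular partners of the pathway were counted from a list of 41 genes, of which 38 were kept. Dcc, Ntng2 and Plxdc1 were not. None passed a limma adjusted p of 0.05 on 4 arrays, and 3 above 0 and 6 below 0 had an unadjusted p under 0.05 (all genes 7.1% and 7.45%). On all 4 arrays 10 were below 0 and 2 above (all genes 12.6% and 12.3%). The median was -0.05 on 4 arrays and -0.02 without array 2.

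Among co-receptors, Nrp1, the neuropilin that pairs with class 3 semaphorins and VEGF, had ratios of -0.04, 0.34, 0.39 and 0.23, while Nrp2 averaged -0.01 ± 0.17. Neo1, the netrin and repulsive guidance molecule receptor neogenin, averaged -0.25 ± 0.08 and its ligand Rgma -0.28 ± 0.19, both below 0 on all arrays. Gpc1, a heparan sulfate proteoglycan that binds Slit, had ratios of -0.38, -0.64, -0.41 and -0.38, a mean of -0.45 ± 0.12. Plxdc2, a plexin-domain membrane protein, averaged -0.55 ± 0.26.

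Among the signalling partners, Arhgef12, a signalling protein bound by B-class plexins, had ratios of -0.34, -0.51, -0.36 and -0.44, a mean of -0.41 ± 0.08 and a limma adjusted p of 0.134. Tiam1, a Rac exchange factor that binds ephrin and Eph proteins, was above 0 on all arrays, with a mean of 0.29 ± 0.09. Rnd1, a small GTPase that binds plexins, had ratios of 0.69, -0.11, 0.74 and 0.54. It passed without array 2 (limma adjusted p 0.0421), the sole partner to do so, and array 2 was the 1 array not above 0.

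The 22 guidance genes outside the rule for named genes, Epha2, Plxnb1, Plxnc1, Sema5b and Slit1 among them, had mean log2 ratios between -0.34 and 0.43. The lowest of them was Ephb6, an Eph receptor without kinase activity, named after its values were seen. Its ratios were -0.57, 0.01, -0.51 and -0.30, so array 2 again was the 1 array not below 0.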

How the data were processed

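The authors deposited spot intensities read by the scanner with Agilent Feature Extraction 9.5.1, as the submitters' processing notes name it. The authors' log10 ratio of red over green in the same files and in the series table served as an alternative (the authors' values, as deposited). Both channels were background corrected (normexp, offset 50), normalized within arrays by loess with control spots at weight 0, and 3 non-uniform spot readings were left out. Spots of 1 probe were averaged, and the kept probe of highest mean intensity stood for a gene. The log2 ratio was tested against 0 with limma 3.58.1 in R 4.3.3 (lmFit, eBayes, 2-sided). P-values were adjusted by Benjamini-Hochberg across the 19091 genes. Levels per channel were scaled with Aquantile. All arrays lay on 1 slide and 1 scan date, so neither could be tested as a batch. The labels call the pools biological replicates, and 4 arrays limit the precision.

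Members and lists were chosen with earlier results of these data known. Genes named with values were up to 12 per direction with 1 sign on all arrays and an unadjusted p under 0.05, the brightest of each family, a list of 21 genes known from heart or vessel development, and any with a ratio beyond 1 on an array. Of the 21, Plxnd1 had no matching probe name. Alternatives changed the signals, background offset, centring, filter, probe rule, array weights and arrays used. Promoters came from RefSeq (GRCm38.p6), whose coordinates were not set against those of the array.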

Additional observations from a re-analysis of the deposited data

Results flagged for a closer look

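In 4 of the 37 genes examined, 1 array lay far from the other 3, by Dixon's test of the gap over the range. Some of the 37, Sema4a among them, were chosen for a ratio beyond 1 on an array, so no chance rate applies to this count. In 3 of the 4 genes the array was array 2. Slit3 stood at -1.32 on array 2 and at -0.12 to 0.02 on the others. Sema4a stood at -1.78 on array 2 and at -0.17 to 0.06 on the others. Ntn3 stood at -0.0440 on array 2 and at -0.55 to -0.51 on the others. Sema3f stood at 0.12 on array 4 and at -0.13 to -0.10 on the others.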

How the results depend on the processing

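Of 555 values of genes under an alternative, 24 kept their sign and passed the threshold where the reported value did not, and 45 had another sign, 12 of these under median centring without loess. Among the named genes with 1 sign on all arrays, Efnb1 was the one that changed sign, to 0.18 under that centring, which also put Ephb3 at 0.0247, Efnb2 at 0.30 and Plxna4 at 0.35. That centring put the median of all genes at 0.23 and the guidance median 0.06 below it (-0.0568), with 18 guidance and 7772 genes in all past the threshold. It gave 22 guidance genes higher and 6 lower at an unadjusted p under 0.05, 28 higher and 6 lower on every array, and medians of 0.17 for all guidance genes, 0.12 for semaphorins, 0.26 for plexins, 0.14 for Slits, 0.13 for netrins, 0.29 for Unc5 receptors, 0.29 for ephrins and 0.17 for Eph receptors. Array weights gave 6 guidance genes past the threshold (Efna5, Ephb2, Ntn3, Robo1, Robo2 and Sema7a, all lower), 402 genes in all and an ephrin median of -0.0305. Separate channels with no replicate block gave 1 (Efna5) and 191. The processed signals and the authors' series table gave 0 guidance genes and 3 genes in all. An offset of 10 and the mean over probes gave 0 genes in all, with a guidance median of -0.0784 for the offset and an ephrin median of 0.0147 for the mean. Every probe as its own feature gave 0 in all and 8 guidance probes higher at an unadjusted p under 0.05 (8.79%, all probes 7.56%). On every array 10 guidance probes were higher, and the share of all probes was not counted. Medians were then -0.0332 for guidance, 0.0147 for ephrins and 0.0386 for netrins. With no filter on dim probes the netrin median was 0.0193 and the ephrin median -0.0351, and removing a running median gave -0.0411 for guidance genes. With 1 array left out, guidance genes past the threshold ran from 0 to 4 and all genes from 0 to 193, both highest without array 2. Lower at an unadjusted p under 0.05 were 8 to 17 guidance genes (14% to 29.8%, all genes 4.17% to 11.2%). Higher were 2 to 8 (3.51% to 14%, all genes 3.56% to 12%). On every remaining array 16 to 23 were lower and 6 to 9 higher. With fewer arrays more genes keep 1 sign: 24.9% of all genes did on 4 arrays and 46.6% without array 2. That share was not counted with another array left out. Medians ran from -0.0888 to -0.0419 for guidance genes, -0.0929 to -0.056 for ephrins and -0.116 to -0.0208 for Eph receptors. The cause of these shifts was not tested.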
